A study of Caenorhabditis elegans with 4 samples.

Results

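The left arm of chromosome V held 526 of the 14199 HDA-1 peaks in the whole-series list of a ChIP-seq study in Caenorhabditis elegans. It was taken as the outer 25% of the chromosome, and its members were all peaks on V whose midpoint lies at or before base 5231037 of the WS220 (ce10) build. Replicate 1 had 362 of its 11762 peaks there and replicate 2 had 392 of its 9901, chosen by the same position. The study compared DNA precipitated with a rabbit antibody to HDA-1 (2 ChIP libraries, replicates 1 and 2) with input DNA (2 libraries, not analysed here). All came from N2, the wild-type laboratory strain, as whole L3 larvae of mixed males and hermaphrodites grown at 20 °C. The deposited values are positions and a score for each peak, in 1 list per ChIP replicate and 1 list for the whole series. No read counts come with the lists, and the depth behind a peak is therefore unknown. The score is the authors' own and its meaning is not stated, so a strong peak here is one high in score within its list. The labels do not state whether the replicates were grown as separate cultures. Intervals given with a share or a density are exact ones at 95% and reflect counting error alone.

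HDA-1 belongs to the class I histone deacetylases, enzymes that take acetyl groups off histone tails and are usually carried to chromatin by corepressor complexes such as NuRD and SIN3. Removal of acetyl groups is associated with more compact, less transcribed chromatin, although deacetylases also occupy active promoters and enhancers. The arms of worm autosomes recombine more than the centres, carry more repeats and more methylation of histone H3 at lysine 9, and lie closer to the nuclear envelope. The arms of V are known for large families of chemoreceptor and nuclear receptor genes. Because the larvae were used whole, a peak absent from a list can be a site bound in few cells.

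Peaks were thinner on the left arm than in the centre of V and denser than on the right arm, but how thin depended on the replicate. Density in the whole-series list was 101 peaks per Mb on the left arm (interval 92.1 to 109), against 108 on the rest of V (103 to 114). This ratio of 0.93 (0.84 to 1.02) did not pass an exact two-sided binomial test (p = 0.136). Replicate 1 had 69.2 peaks per Mb on the left arm, against 91.1 on the rest of V, a ratio of 0.76 (0.68 to 0.85) that passed the same exact test (p = 2.00e-06). Replicate 2 had 74.9 against 77.0 peaks per Mb, a ratio of 0.97 (0.87 to 1.09, exact p = 0.644). The deficit was thus clear in replicate 1 and not detectable in replicate 2, and the difference between the replicates was not tested. Taking the outer 33% of the chromosome as the arm turned the direction of the whole-series log2 ratio, to 0.021 in place of -0.11. In the better-scoring 50% of the list the log2 ratio was -0.29 and passed (exact p = 0.00653).

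The rest of V was itself uneven, and the left arm lay between its other sections. In the whole-series list the centre had 125 peaks per Mb, so the left arm stood at 0.81 times the centre (interval 0.73 to 0.89, exact binomial adjusted p = 6.44e-05 over 9 tests). The right arm had 76.1 peaks per Mb, so the left arm stood at 1.32 times the right arm (1.16 to 1.51, exact adjusted p = 6.44e-05). In replicate 1 the ratios of the left arm to the centre and to the right arm were 0.62 and 1.34, and both passed (exact adjusted p = 4.71e-15 and 0.000519). In replicate 2 they were 0.92 and 1.11, and neither passed (exact adjusted p = 0.197 for both). Both replicates therefore placed the left arm between the centre and the right arm, with a smaller spread in replicate 2. These tests take peaks as independent units although peaks come in groups, so the p-values are too small.

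**Figure D1:**
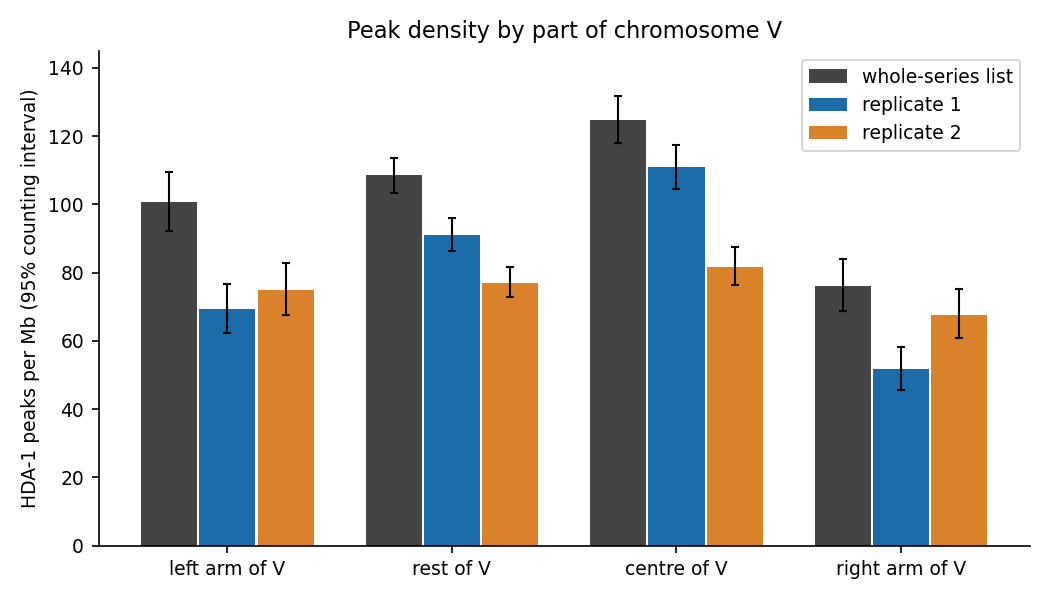
HDA-1 peaks per Mb (y axis) on the left arm, the rest, the centre and the right arm of V (x axis) in the whole-series list and each replicate list, with bars for the density and whiskers for the 95% counting interval. The left arm reads 101, 69.2 and 74.9 peaks per Mb in the whole-series list, replicate 1 and replicate 2, and the gap to the centre is wide in replicate 1 (111 in the centre) and narrow in replicate 2 (81.7).

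The other autosomes had denser left arms. Over the outer 25% at the left end of I, II, III and IV, density in the whole-series list lay between 116 and 170 peaks per Mb, with 101 on V. Replicate 1 had 69.2 peaks per Mb on the left arm of V and 80.4 to 124 on the other left arms. Replicate 2 had 74.9 on V and 100.3 to 121 on the others. The left arm of V was the sparsest of the 5 in each list, which was not tested. Peaks covered 3.05% of the left arm, against 3.67% of the rest of V.

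Within the left arm, peaks were spread from end to end in dense and thin blocks with no steady gradient towards the centre. Over 20 full bins of 250 kb the whole-series count ran from 11 to 38 with a median of 23.5, and over 62 such bins on the rest of V it ran from 7 to 53 with a median of 27. The densest bin, 2500001 to 2750000, held 38 peaks (replicate 1 had 18, replicate 2 had 35). Next came 3500001 to 3750000, where 37 peaks stood beside 36 of replicate 1 and 31 of replicate 2. The bins 1250001 to 1500000 and 2000001 to 2250000 tied at 34. Some dense blocks were thus found alike by both replicates, while the densest rested mainly on replicate 2.

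The thinnest stretch followed directly on the densest bin. The bin 2750001 to 3000000 held 11 whole-series peaks (replicate 1 had 6, replicate 2 had 9), and 3000001 to 3250000 held 12 (7 and 9). Of these 23 peaks 3 overlapped both replicates, against 32.5% of all left-arm peaks and 41.9% of the whole list. By bin the shares were 9.09% and 16.7%, and the highest of any bin was 52.9%. The denser bins 2250001 to 2500000 (5 of 30) and 3250001 to 3500000 (4 of 24) also stood at 16.7%. The next lowest bins in count, with 18 peaks each, were 250001 to 500000 and 1500001 to 1750000. Every full 250 kb bin and every full 100 kb bin held at least 1 whole-series peak, and replicate 2 had no peak in at least 1 of the 52 bins of 100 kb. As a description across the 20 bins, which share libraries and are not replicates, the counts of the replicates moved together (Pearson r 0.72, Spearman rho 0.75). Replicate 1 had more peaks in 9 bins, replicate 2 in 9, and 2 were equal.

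**Figure D2:**
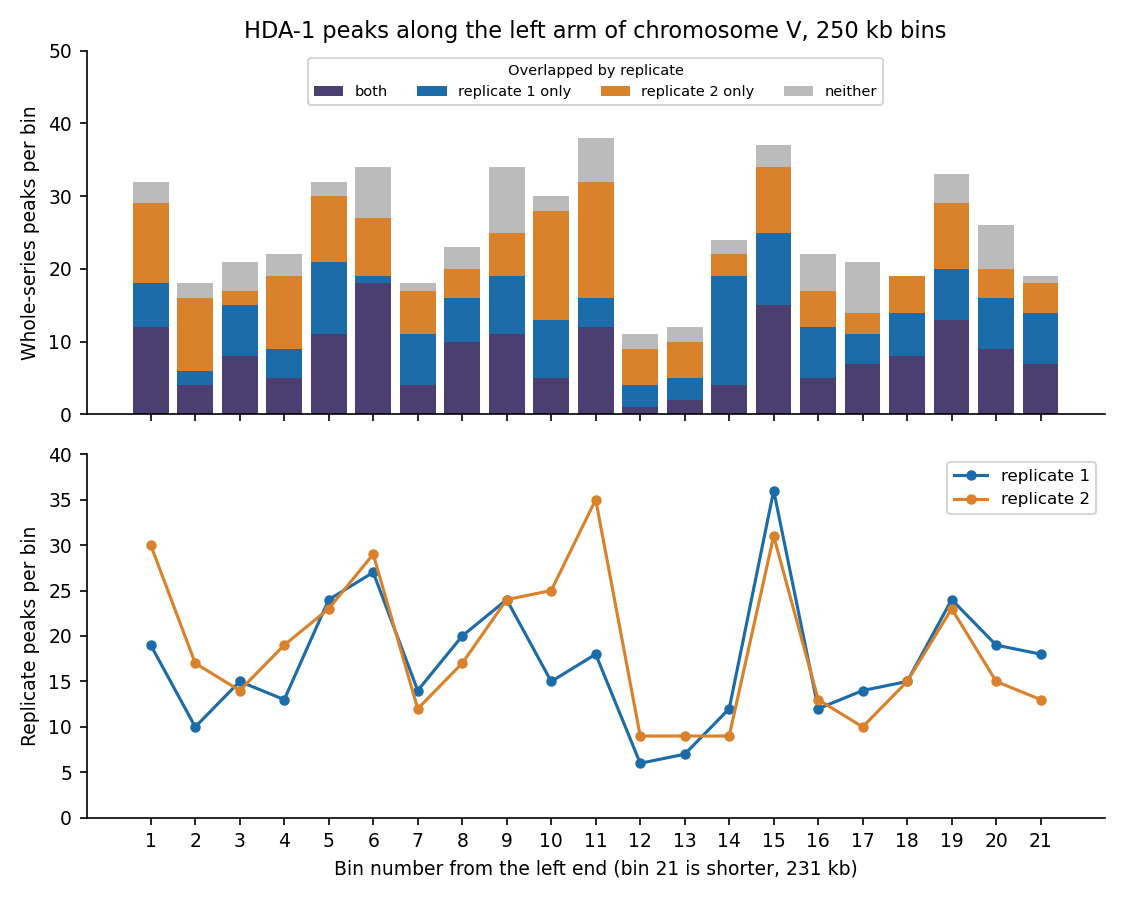
Whole-series HDA-1 peaks per 250 kb bin of the left arm, coloured by the replicates that overlap them (upper panel), and peaks of each replicate list in the same bins (lower panel), with bins numbered from the left end on the x axis. Bin 11 is the highest with 38 peaks and bins 12 and 13 are the lowest with 11 and 12; replicate 2 lies above replicate 1 in bins 1, 2, 10 and 11, and both peak together in bin 15 at 36 and 31.

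The outer part of the arm held slightly more peaks than the inner part. From the end to base 2615518 it held 274 peaks (105 per Mb), and from there to the boundary 252 (96.3 per Mb). Replicate 1 had 185 and 177 peaks in these parts. Replicate 2 had 220 and 172. The surplus near the chromosome end was therefore mainly in replicate 2.

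Fewer left-arm sites were found by both replicates than on the rest of V. Of the 526 left-arm peaks, 171 (32.5%, interval 28.5 to 36.7%) overlapped a peak of each replicate by at least 1 bp, against 42.1% of the 1702 peaks on the rest of V (39.8 to 44.5%) and 41.9% of the whole list. This gap of -9.62 percentage points passed Fisher's exact test (adjusted p = 0.000257 over 6 tests, odds ratio 0.66). The labels do not state how the whole-series list was drawn up. As the study has 2 ChIP libraries, that list and the replicate lists cannot be taken as independent, which bears on every share found in both, in 1 or in neither. Sites found in both scored 18.2 at the median on the left arm, against 19.8 on the rest of V, and were 361 bp wide, against 392 bp. The call was lost in the better-scoring 50% of each list, with -6.64 points (adjusted exact p = 0.251), and with the outer 33% as the arm, with -5.21 points (adjusted exact p = 0.0585).

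In their place, the left arm had more sites seen by replicate 2 alone. These were 149 peaks (28.3%, interval 24.5 to 32.4%), against 15.7% on the rest of V (14.1 to 17.6%) and 18% of the whole list. The difference of 12.6 points passed Fisher's exact test (adjusted p = 2.54e-09, odds ratio 2.12), and it passed under each of the 6 alternatives tried, with 7.16 to 13.8 points. The share of such sites was 19.8% to 32.1% in the 10 autosome arms and 10.4% to 12.8% in the 5 autosome centres. Higher shares in the arms were already known from these lists, so the left arm of V gives no independent support. The right arm of V had 28.9% (24.5 to 33.6%) and the centre 11.7% (10.0 to 13.6%), so the left arm resembled the right arm in value, which was not tested.

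Sites seen by replicate 1 alone were less frequent on the left arm than on the pooled rest of V, by a smaller margin. They numbered 132 (25.1%, interval 21.4 to 29.0%), against 30.4% on the rest of V (28.2 to 32.6%) and 28.9% of the whole list, a difference of -5.28 points (Fisher's exact test, adjusted p = 0.0422). This call was lost when midpoints had to lie within 100 bp, with -5.21 points (adjusted exact p = 0.0558), and when replicate 1 was limited to its 9901 best-scoring peaks, with -3.68 points (adjusted exact p = 0.181). It was also lost in the better-scoring 50% (-4.72 points) and with the outer 33% (-2.91 points). The centre of V had 33.28% and the right arm 20.85% of such sites, so the left arm was below the centre only. On the left arms of I, II, III and IV the share was 15.58% to 24.96%, so V was not low among left arms. The comparisons with these parts were not tested. Sites that overlapped neither replicate numbered 74 (14.1%, interval 11.2 to 17.3%), against 11.8% on the rest of V and 11.2% of the whole list, which did not pass (Fisher's exact test, adjusted p = 0.206). They scored 5.13 at the median and were 167 bp wide.

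**Figure D3:**
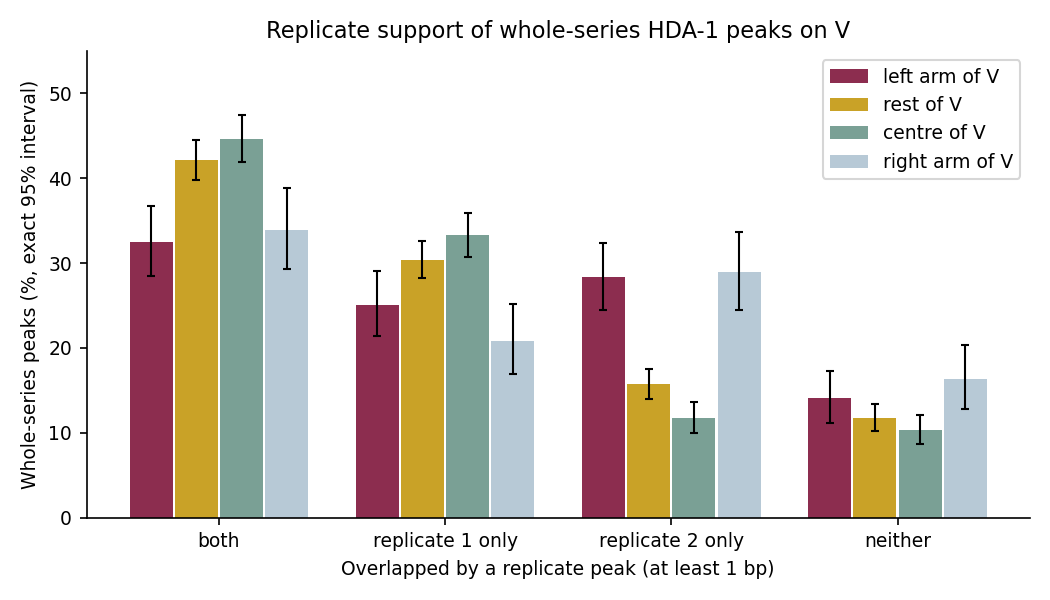
Share of whole-series HDA-1 peaks (y axis, percent, with exact 95% intervals) overlapped by both replicates, by replicate 1 only, by replicate 2 only or by neither (x axis), for the left arm, the rest, the centre and the right arm of V. The left arm reads 32.5% for both and 28.3% for replicate 2 only, against 42.1% and 15.7% on the rest of V, and its bars lie beside those of the right arm, at 33.9% and 28.9%.

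Seen from the replicate lists, the lower agreement was mainly in the share of replicate 2 peaks that recurred, and the right arm of V was lower still. Of the 392 left-arm peaks of replicate 2, 187 (47.7%, interval 42.7 to 52.8%) overlapped a replicate 1 peak, against 65.6% on the rest of V (62.8 to 68.3%) and 65.2% of the whole list. The rest of V joins unlike sections, with 75.9% in the centre and 40.7% on the right arm. Of the 362 left-arm peaks of replicate 1, 174 (48.1%, interval 42.8 to 53.3%) overlapped a replicate 2 peak, against 51.5% on the rest of V (48.9 to 54.1%) and 51.5% of the whole list. The unequal list lengths enter both shares, and no test was made. Strong sites recurred often on the left arm. Among the best-scoring 25% of each list, 63 of 72 replicate 1 peaks (87.5%) and 66 of 75 replicate 2 peaks (88%) were in the other list, against 89.5% and 92.4% on the rest of V. Among the lowest-scoring 25% of replicate 2, 32 of 97 left-arm peaks (33%) recurred, against 48.9% on the rest of V (60.8% in the centre and 20% on the right arm). For replicate 1 the direction was the other way, with 34 of 104 (32.7%) against 24.3% on the rest of V. Over 172 matching pairs on the left arm, which share 2 libraries and are not replicates, the scores had a Spearman rho of 0.59, against 0.53 over 720 pairs on the rest of V.

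The whole-series list lacked 64 of the 362 left-arm peaks of replicate 1, with a median score of 4.74. It lacked 193 of 1429 replicate 1 peaks on the rest of V and 1678 of 11762 in the full replicate 1 list. Of the 392 left-arm peaks of replicate 2 it lacked 56, with a median score of 5.89. For replicate 2 these counts were 132 of 1209 on the rest of V and 802 of 9901 in the full list. On the right arm of V it lacked 50 of 270 replicate 1 peaks and 89 of 354 replicate 2 peaks. In the centre it lacked 143 of 1159 and 43 of 855. A higher share missing than on the pooled rest of V was therefore not particular to the left arm. The differences were not tested.

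Left-arm sites scored lower than those on the rest of V taken as a whole, with values near those of the right arm. The median score in the whole-series list was 7.69 on the left arm (quartiles 5.50 and 13.8), against 9.10 on the rest of V (5.54 and 17.6). Only 96 left-arm peaks (18.3%, interval 15 to 21.8%) were among the best-scoring 25% of the list, those above 17.5, against 25.1% on the rest of V (23.0 to 27.2%) and 24.9% of the whole list. This gap of -6.84 points passed Fisher's exact test (adjusted p = 0.00356 over 3 lists). Replicate 2 passed with 19.1% against 24.9% (background 25%, adjusted exact p = 0.0296), and replicate 1 had 19.9% against 24.8% (background 25%, adjusted exact p = 0.0531). The centre of V had 26.8% of its whole-series peaks in that class and the right arm 19.6%, so the gap in value was to the centre. The direction was the same in all 3 lists, which are not independent of one another, and this test was added after the values were seen. Among the strongest 10% of the list the difference was -1.80 points (8.37% against 10.2%) and did not pass (exact p = 0.24).

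The surplus of sites seen by replicate 2 alone lay among low and middling scores. In the lowest-scoring 25% of the whole-series list, 43 of 144 left-arm peaks (29.9%) were found in replicate 2 only, against 20.0% on the rest of V. In the next 25%, with scores from 5.54 to 9.25, 69 of 154 (44.8%) were, against 23.5%. In the next, up to 17.5, 36 of 132 (27.3%) were, against 17.9%. Among the best-scoring 25%, just 1 of 96 was (1.04%, against 1.41%), and 89 (92.7%) were found in both replicates, against 93.4%. The right arm had like shares in the 3 lower classes, with 35 of 105, 48 of 118 and 28 of 97 peaks in replicate 2 only, and the centre had 15.6%, 17.2% and 14.6%. The surplus among weaker peaks was thus seen in both arms of V, and in the best-scoring 25% both left-arm shares lay within 1 percentage point of those on the rest of V. These shares were not tested separately.

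**Figure D4:**
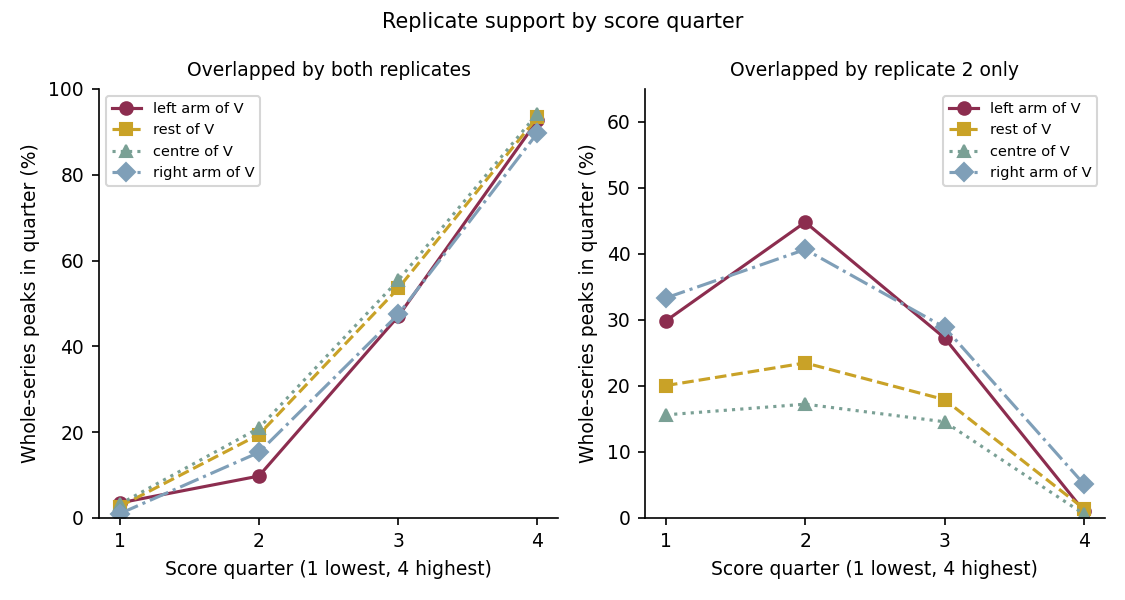
Share of whole-series HDA-1 peaks overlapped by both replicates (left panel) and by replicate 2 only (right panel), on the y axes in percent, by score class of the list on the x axes (1 the lowest-scoring 25%, 4 the highest), for the left arm, the rest, the centre and the right arm of V. The curves of the left arm and the rest meet in the highest class, at 92.7% and 93.4% for both replicates, and stand farthest apart in class 2, at 44.8% and 23.5% for replicate 2 only, where the right arm reads 40.7%.

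The strongest left-arm sites were shared by both replicates, as elsewhere, and scattered along the arm. Of the 44 left-arm peaks among the strongest 10% of the whole list, 44 overlapped both replicates (100%, against 99.4% on the rest of V and 98.7% of the whole list), with 21 in the outer and 23 in the inner part of the arm. The best, at 1917725 to 1918418, was 694 bp wide, scored 84.8 and stood at rank 11 of the whole list. Among left-arm peaks it was at rank 1 in replicate 1 (score 129) and rank 3 in replicate 2 (66.4). The peaks at 2008461 to 2008769 (309 bp) and 4063624 to 4063912 (289 bp) tied at a score of 80.6. The first of that pair was at rank 2 in replicate 1 (score 128) and at rank 67 in replicate 2 (16.3), and the second at ranks 3 (115) and 10 (45.5). A high whole-series score therefore did not always mean a high score in both replicates.

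Others of the 10 leading shared sites showed the same range. The peak at 1151102 to 1152133 (1032 bp, score 79.1) was at ranks 4 and 2 in replicates 1 and 2. That at 1871537 to 1872876 (1340 bp, score 66.4) was at rank 6 in replicate 1 and was the best-scoring left-arm peak of replicate 2 (score 102). That at 4810706 to 4810969 (264 bp, score 66.5) was at ranks 26 and 5. These were strong in both lists, with different order. The peak at 2638576 to 2638885 (score 52.5) was at ranks 5 and 38, and that at 4194856 to 4195150 (score 50.6) at ranks 11 and 13. The last of the group leaned to replicate 2: 4498984 to 4499981 (998 bp, score 50.4) was at ranks 87 and 4, and 1195801 to 1196713 (913 bp, score just under that) at ranks 55 and 6.

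Sites called by a single replicate were rare among the strongest peaks, as elsewhere. They were 7 of the 96 left-arm peaks in the best-scoring 25% of the list (6 in replicate 1 only and 1 in replicate 2 only). The 2 shares were 6.25% and 1.04%, against 5.15% and 1.41% on the rest of V. Over all peaks of that class they were 5.85% and 0.876%. The best found in replicate 1 only were at 2600623 to 2600839 (score 26.3), 5131506 to 5131721 (25.6) and 3579841 to 3580256 (23.9). The best found in replicate 2 only were at 2634843 to 2635317 (score 27.3, and left-arm rank 11 in replicate 2), 4647751 to 4648198 (17.1) and 2378006 to 2378262 (15.9). The best found in neither were at 2663117 to 2663281 (12.8), 2030227 to 2030379 (12.8) and 965008 to 965154 (10.1), each no wider than 165 bp.

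Broad sites were few and mostly strong, and their share did not pass a test against the rest of V. Of the left-arm peaks 20 were 800 bp wide or more (3.80%, interval 2.34 to 5.81%), against 85 on the rest of V (4.99%, 4.01 to 6.14%) and 4.08% of the whole list (Fisher's exact test, adjusted p = 0.291). The direction turned in each replicate alone, with 15 such peaks (4.14%, against 3.99% on the rest of V) in replicate 1 and 10 (2.55%, against 1.41%) in replicate 2. Neither replicate passed (adjusted exact p = 0.881 and 0.207). At a limit of 600 bp the whole-series difference was -4.07 points and passed (adjusted exact p = 0.0126). The 20 broad peaks had a median width of 1023 bp and a median score of 34.8, held 14.9% of the base pairs in left-arm peaks, and 19 of them overlapped both replicates (95%, against 91.8% on the rest of V and 96.5% of the whole list). The median width over all left-arm peaks was 228 bp (quartiles 177 and 329.5), against 258 bp (186 and 396) on the rest of V. In replicate 1 it was 230.5 bp against 264, and in replicate 2 it was 206 bp against 217. In the whole-series list the median width was 230 bp on the right arm and 268 bp in the centre. The shares of peaks of 800 bp or more were 3.27% and 5.52% there, so both left-arm values were nearer to the right arm, which was not tested.

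The widest peak of the whole series lay on this arm. It ran from 723826 to 727838 (4013 bp, score 43.0). Replicate 1 had 1 peak of 4037 bp there (score 60.9) and replicate 2 had 4 peaks, the best of them 1240 bp wide (score 46.5). The next widest, 7918 to 9423 (1506 bp, score 47.2), lay close to the chromosome end, where the first left-arm peak began at 6103. It matched 1 peak of replicate 1 and 2 of replicate 2. Of the 20 broad peaks, 11 covered at least 2 replicate 2 peaks and 3 covered at least 2 replicate 1 peaks. A broad site in the whole-series list was thus more often called in pieces in replicate 2.

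The remaining peaks among the 8 widest were mostly shared. Those at 1153124 to 1154597 (1474 bp, score 41.9), 1871537 to 1872876 (1340 bp) and 2126404 to 2127534 (1131 bp, score 38.6) each matched 1 peak of replicate 1 and 2 of replicate 2. The peak at 2066631 to 2067756 (1126 bp, score 20.8) matched 2 in each. The peak at 4432074 to 4433115 (1042 bp) scored 7.69 and matched 1 in each. The peak at 3439262 to 3440366 (1105 bp, score 5.23) was the only broad one found in a single replicate.

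Close spacing was a little less frequent on the left arm than on the pooled rest of V, within the counting error. Of its 525 distances between neighbouring peaks 157 (29.9%, interval 26.0 to 34.0%) were under 1 kb, against 33.6% on the rest of V (31.4 to 35.9%) and 35.4% of the whole list (Fisher's exact test, adjusted p = 0.184). The left arm lay between the centre, at 36.1%, and the right arm, at 25.7%, which was not tested. In replicate 1 alone the shares were 25.8% against 32.6%, a difference of -6.87 points that passed (adjusted exact p = 0.0262), and in replicate 2 they were 25.8% against 27.2% (adjusted exact p = 0.646). In the better-scoring 50% the direction turned, to 3.00 points. The left arm had 275 peaks with no neighbour within 1 kb (52.3%, against 49.4% on the rest of V), 66 pairs, and 28 groups of 3 or more that held 119 peaks (22.6%, against 30.8%). Groups numbered 5.35 per Mb, against 7.71 on the rest of V. Left-arm peaks in groups scored 9.75 at the median and those with no near neighbour 7.34. On the rest of V the order was the other way, at 8.69 and 9.38, and the difference was not tested. The shares found in both replicates were 38.7% in groups and 28% for single peaks on the left arm, against 45.7% and 39.4% on the rest of V.

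The largest group on the left arm was not a cluster of separately supported sites. Between 3434744 and 3441122 the whole-series list had 10 peaks with scores of 2.10 to 5.83. All 10 overlapped the same replicate 1 peak, from 3434607 to 3441115, which at 6509 bp was the widest peak of any list and scored 12.9. Replicate 2 had no peak there. These 10 made up most of the 15 peaks found in replicate 1 only in the bin 3250001 to 3500000. When whole-series peaks under the same replicate peak were counted as 1 throughout V, 509 left-arm peaks were left, and the difference in sites found in replicate 1 only was -5.37 points (adjusted exact p = 0.0355).

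The other large groups had more support. The 9 peaks from 1149257 to 1156857 included the shared strong and broad sites at 1151102 and 1153124, scored from 5.79 to 79.1, and lay over 9 peaks of each replicate, with 6 overlapping both. The 8 peaks from 3578939 to 3584448 matched 7 and 5 peaks of replicates 1 and 2, with 3 found in both. The 7 peaks from 4823657 to 4827558 matched 6 and 1, so that group rested on replicate 1. The 5 peaks from 2672199 to 2674412 matched 4 and 4, with 3 found in both. It was the shortest of the groups of 5, at 2214 bp.

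**Figure D5:**
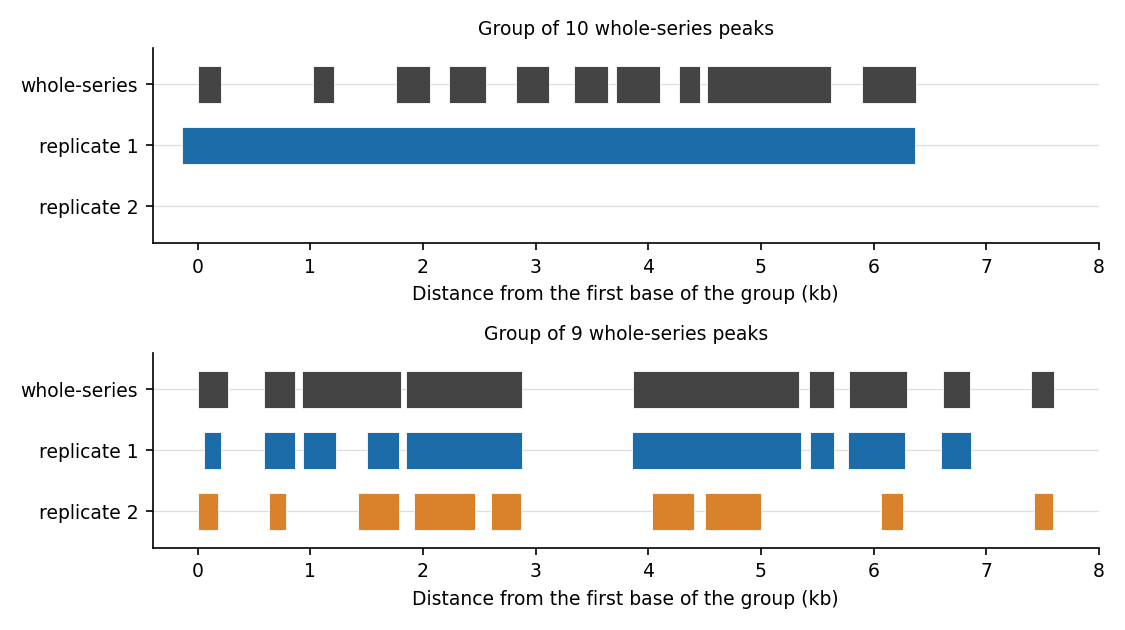
Peaks of the whole-series list and of each replicate (rows) over the 2 largest groups of the left arm, drawn to scale as distance in kb from the first base of the group (x axis). In the group of 10 peaks the whole-series pieces lie under 1 replicate 1 peak of 6509 bp with nothing in replicate 2, and in the group of 9 each replicate has 9 peaks of its own.

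Long stretches of the arm held no HDA-1 peak. Stretches of 25 kb or more without a whole-series peak numbered 60 (11.5 per Mb, against 10.8 on the rest of V). They made up 52.3% of the arm, against 49.4% of the rest of V and 35.3% of the whole span. The centre had 44.1% and the right arm 58.6%, so the left arm lay between them in value. In replicate 1, stretches of 25 kb or more without a peak of that list made up 64.8% of the arm, against 58.7% of the rest of V. In replicate 2 the direction turned, at 60.4% against 61.9%. The left arm was there below both the centre (61.1%) and the right arm (62.35%). None of this was tested. Of the 60 left-arm stretches, 28 were also free of peaks in both replicate lists, while 21 held replicate 1 peaks and 19 held replicate 2 peaks. The longest, 4208304 to 4346685 (138 kb), held 1 replicate 1 peak with a score of 6.15. Without it, 4213663 to 4346680 (133 kb) was the longest stretch free of peaks in all 3 lists.

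The next longest were 3456080 to 3559801 (104 kb, with 3 replicate 1 peaks and 1 replicate 2 peak of scores up to 5.89), 3927838 to 4029081 (101 kb, empty in all lists), 1480848 to 1573506 (92.7 kb, with 1 replicate 1 peak) and 361601 to 447056 (85.5 kb, with 1 of each). The 104 kb stretch ran into the bin 3500001 to 3750000, so the 37 peaks of that dense bin all lay beyond base 3559801. Stretches of 50 kb or more numbered 14, against 56 on the rest of V, which spans 15.7 Mb to the arm's 5.23 Mb. In all 3 lists together, 51 stretches of at least 25 kb made up 41.1% of the arm.

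The boundary fell between weak peaks. The last peaks inside it were at 5218621 to 5218832 (score 3.78), 5220083 to 5220235 (2.13) and 5226619 to 5226776 (5.79), none of them in both replicates. The first outside were at 5233808 to 5233976 (6.32, replicate 1 only), 5269100 to 5269446 (17.7) and 5271448 to 5271841 (27.2), with both of the last found in both replicates.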

How the data were processed

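Per the labels' protocols, ground worms were crosslinked in EGS and then formaldehyde, and the chromatin was sonicated and precipitated. Per the submitters' processing notes, BWA and ce10 were used. Per the file headers, coordinates are on WormBase WS220 and peaks were called with MACS. No source used here gives the version of MACS, its threshold or its control. Each deposited row gives a peak's position and the authors' score, with no other unit. The score served only to rank or filter peaks within a list.

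Chromosome ends were the largest peak end over the 3 lists, 20924149 on V. A share of peaks was compared by Fisher's exact test and a density by an exact binomial test, both two-sided, with Benjamini-Hochberg adjustment within each family. A p-value not called adjusted is the unadjusted one. Peaks are the units, and spread between cultures does not enter the p-values. The members, lists and regions named were chosen with earlier results of these data known. Named regions followed a rule: the 10 best-scoring shared peaks, the 3 best of each other class, the 8 widest, 5 groups and 5 stretches, the 3 densest and sparsest bins, and 3 peaks on each side of the boundary. Functions were tested on simulated peaks. Genes were available only on WBcel235, which is not the build of the files, so no genes or sequences were assigned. Tools were SciPy 1.17.1, pandas 2.3.3, NumPy 2.4.6 and matplotlib 3.10.9 under Python 3.11.15.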

Additional observations from a re-analysis of the deposited data

How the results depend on the processing

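Among 61 values recomputed under an alternative, 36 held (same sign and same call, or a shift within the spread), 9 shifted beyond the spread, 8 lost the call, 4 gained one and 4 reversed. The causes were not tested. For medians and covered base pairs the spread was the standard deviation of the 2 replicate lists. A score filter must raise the median score, and a longer limit must lower the count of stretches, so those shifts were fixed in advance. None of the 4 reversed values passed its test, and neither had the main values they replaced. Differences in share are left arm minus rest of V, in percentage points. In the better-scoring 50% of each list the log2 density ratio was -0.29 and passed (exact p = 0.00653), sites found in both replicates (-6.64) and in replicate 1 only (-4.72) no longer passed, the share of close gaps reversed to 3.00, and the medians were 289 bp and a score of 15. With the outer 33% as the arm, the density ratio reversed to 0.021, sites in both (-5.21) and in replicate 1 only (-2.91) no longer passed, and the median score was 8.24. Midpoints within 100 bp gave -5.21 for replicate 1 only, and shares of 35.4% (replicate 1 peaks found in replicate 2) and 32.7% (the reverse). Equal list lengths, chosen after seeing the data, gave -3.68 for replicate 1 only. The best-scoring 10% gave -1.80 in place of -6.84 for the best-scoring 25%. A width limit of 600 bp gave -4.07 and passed, and stretches of 50 kb or more numbered 14.

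With each replicate alone, the log2 density ratio ranged from -0.40 (replicate 1) to -0.040 (replicate 2). The share of broad peaks reversed, at 0.15 and 1.14, and neither value passed. The share of close gaps ranged from -6.87 to -1.32. Peaks among the best-scoring 25% ranged from -5.76 to -4.88, the median width from 206 to 230.5 bp and the median score from 8.06 to 8.14. The surplus of sites found in replicate 2 only passed under each alternative tried. Depth is unknown, so a missing peak cannot be told apart from an undersequenced one. No paired analysis was possible because numbers 1 and 2 are shared only between ChIP and input, and the inputs were not analysed here.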
